A study of Cricetulus griseus with 16 samples.

Results

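Cells either make cholesterol from acetyl-CoA or take it up with lipoproteins, and 8 genes of the first route were followed here in Chinese hamster ovary (CHO) cells exposed to heat. They are Srebf2, Insig1, Hmgcs1, Idi1, Fdft1, Sqle, Lss and Dhcr7, chosen by name, and all 8 were found among the 20824 genes listed in the count table. None of the 8 is a lipoprotein receptor, so uptake was read from a separate list of uptake and trafficking genes. RNA was sequenced from 16 libraries of 1 cell line, with 4 biological repeats, lettered A to D, in each of 4 groups. The groups were cells kept at 37 °C, cells heated to 40 °C for 1 h, cells heated to 40 °C for 6 h, and cells heated to 42.5 °C for 1 h. All cells grew in Ham's F-12K medium with fetal bovine serum, itself a source of lipoprotein cholesterol, and heat is the only treatment the labels name. The study set these treatments side by side to ask how mild, prolonged and stronger heat reshape the transcriptome.

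Cholesterol synthesis is controlled from the membrane of the endoplasmic reticulum. When membrane sterol is low, the transcription factor SREBP2, the product of Srebf2, is carried by its escort SCAP to the Golgi, cut free and sent to the nucleus, where it turns on genes of nearly every step of the pathway. When sterol is high, Insig1 holds the SCAP complex back, and Insig1 is itself a target of SREBP2. The enzymes act in a line: Hmgcs1 makes HMG-CoA, Idi1 isomerises the isoprene unit, Fdft1 joins isoprenoids to squalene, Sqle oxidises squalene, Lss closes the rings to lanosterol, and Dhcr7 acts near the end of the chain.

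Total counts were between 10504192 and 14668365 per library, and each of the 8 genes had at least 175 counts in every library, far above the floor of 3 counts. Levels are given as CPM (each count relative to the library's total, on the usual scale) scaled by TMM, a normalization that evens out library composition. They are shares of the counted RNA, so less RNA per cell and fewer cells expressing a gene cannot be told apart. Gene lengths were not used, so levels are compared between groups and never between genes. The study left out 1 control as strongly inconsistent with its group. Replicate D at 37 °C was likewise left out of the tests here, and 15 libraries remained. For the 8 genes this library lay above the other 3 controls in 5 and below them in 3. Its Srebf2 level was 160 CPM against 199 to 224 CPM in the others, and its Sqle level was 340 CPM against 279 to 302 CPM. Results that change when it is put back are given with that value. Of 4 heat shock genes found, 3 rose after 1 h at 40 °C and 4 in each of the other treatments. Among them Dnajb1, which encodes a co-chaperone of Hsp70, rose by 1.63, 0.65 and 3.79 on the log2 scale, the first not passing with all 4 controls (adjusted p = 0.114) and the second not in 1 fit over all groups (adjusted p = 0.0928). Of 6 mesenchymal markers, 4 were expressed, and their sum was 2276 to 2933 CPM over all groups. Most of it was Vim, with group means of 2010 to 2326 CPM, while Col1a1 had at most 2 counts in any library used and Thy1 had 0. The sum of 4 epithelial markers was at most 4.14 CPM, that of 6 ovarian granulosa or theca markers at most 8.63 CPM, that of 3 leukocyte markers at most 0.155 CPM and that of 3 endothelial markers at most 0.326 CPM. In those lists Epcam, Krt19, Cldn4, Fshr, Foxl2, Cyp19a1 and Ptprc had at most 1 count in any library used. Other genes of the same lists were detected at low levels, Cdh1 with 22 to 48 counts per library, Amh with 24 to 90 and Inha with 12 to 32, and the epithelial keratins Krt8 and Krt18 were not found by name.

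After 1 h at 40 °C none of the 8 genes passed the test. After 6 h at 40 °C the mid-pathway enzymes Idi1 and Fdft1 rose by 39.1% and 26.1% and Insig1 by 20.6%, while Lss fell by 15.3%. After 1 h at 42.5 °C Dhcr7 fell by 28.7%, Insig1 by 25.7%, Lss by 18.5%, Sqle by 16.7% and Srebf2 by 13.3%, while Idi1 and Fdft1 differed from the controls by 0.841% and -0.34%. Here a gene passed when its Benjamini-Hochberg adjusted p, from edgeR's quasi-likelihood test over all genes tested, was under 0.05. Of all genes, 29.4% passed after 6 h at 40 °C and 43.1% after 1 h at 42.5 °C. With control replicate D put back, only Idi1 kept its call after 6 h, and Srebf2 and Lss lost theirs at 42.5 °C. The Insig1 call after 6 h also held in only 2 of 7 fits that left out 1 library. None of the 8 reached the study's threshold for a differentially expressed gene (DEG), which also asks for a fold change of 1.5, in any comparison with 37 °C.

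**Figure D1:**
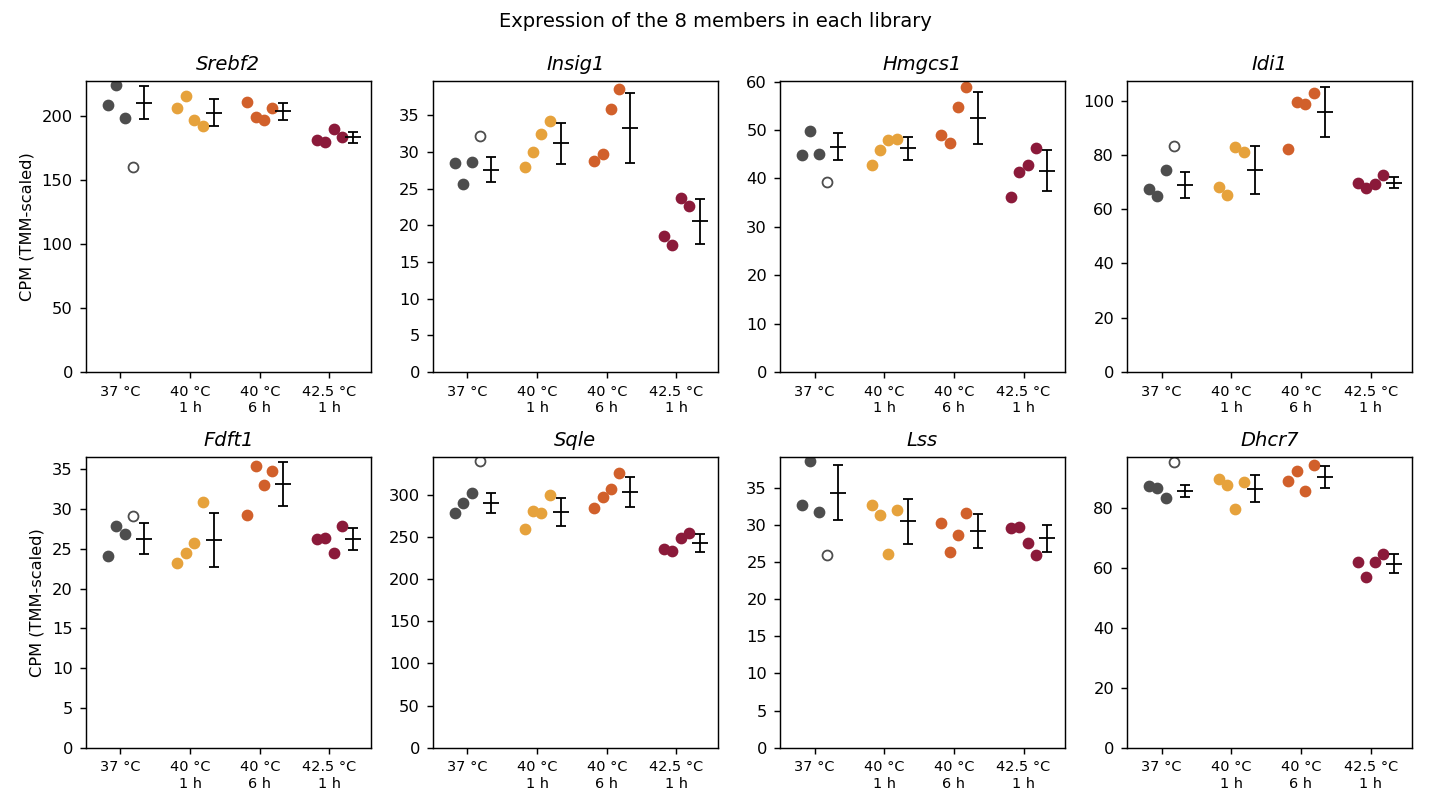
Level of each of the 8 genes in each library, in CPM scaled by TMM on a linear axis from 0, by temperature and time. Points are replicates A to D from left to right, the open circle is 37 °C replicate D, which the means leave out, and the bars are the mean ± SD (n = 3 at 37 °C, n = 4 in the heated groups): Idi1 and Fdft1 are highest after 6 h at 40 °C, and Dhcr7 and Insig1 are lowest at 42.5 °C.

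The regulators are described first. Srebf2 (ENSCGRG00001023422) was at 208, 224 and 199 CPM in the libraries at 37 °C, at 207, 216, 197 and 192 CPM after 1 h at 40 °C, and at 211, 199, 197 and 207 CPM after 6 h at 40 °C. Those 3 groups overlapped throughout. At 42.5 °C its level was 182, 180, 190 and 183 CPM, below every library of the other groups used in the tests. Of all genes, 22.8% were at 42.5 °C below every control used, 17.8% below every 40 °C 1 h library and 21.3% below every 6 h library. The share below all of these at once was not counted. Srebf2 fell by 0.21 on the log2 scale against 37 °C (SE 0.045, adjusted p = 0.00171). It was -0.11 with all 4 controls (adjusted p = 0.495), so this call rested on leaving out control replicate D, whose Srebf2 level was lower than any at 42.5 °C. In the RefSeq annotation of another hamster assembly, the microRNA gene Mir33 lies within Srebf2, and reads of its precursor would not be told apart.

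Insig1 (ENSCGRG00001012058), the brake on SREBP transport, had the largest difference between any 2 groups among the 8 genes, given below. Its control libraries were at 28.5, 25.6 and 28.6 CPM, and those after 1 h at 40 °C were at 27.9, 30.0, 32.5 and 34.2 CPM. The 6 h libraries were at 28.8, 29.8, 35.8 and 38.6 CPM. Each was above every control used in the tests, as in 18.6% of all genes, though the lowest by a small margin. Replicates A and B were below 37 °C replicate D (32.1 CPM). The rise of 0.27 (SE 0.095, adjusted p = 0.0401) was fragile. It passed in only 2 of 7 fits that left out 1 library, those without 6 h replicates A or B. Without control replicates A, B or C the adjusted p was 0.069, 0.168 and 0.0575, without 6 h replicates C or D it was 0.115 and 0.12, and with all 4 controls it was 0.252. At 42.5 °C the level was 18.6, 17.3, 23.7 and 22.6 CPM, below all other libraries, with the shares of all genes given for Srebf2. The fall of 0.43 from 37 °C (SE 0.099, adjusted p = 0.00259) passed in all 7 such fits and with all 4 controls. RefSeq places an uncharacterised long noncoding RNA gene over part of Insig1, and the strand setting of the counting is not given in the sources used here.

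Next come the enzymes that build squalene. Hmgcs1 (ENSCGRG00001021007), which makes HMG-CoA, was at 44.8, 49.7 and 45.1 CPM at 37 °C and between 42.9 and 48.1 CPM after 1 h at 40 °C. Its level was 49.1, 47.3, 54.8 and 59.0 CPM after 6 h at 40 °C and 36.1, 41.2, 42.8 and 46.4 CPM at 42.5 °C. Both heated groups overlapped the controls. The difference from 37 °C was 0.17 after 6 h (SE 0.075, adjusted p = 0.0921) and -0.17 at 42.5 °C (SE 0.076, adjusted p = 0.0889), and neither passed. Leaving out 1 library brought each of them past the threshold once, without 6 h replicate B (adjusted p = 0.0345) and without 42.5 °C replicate D (adjusted p = 0.0177).

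Idi1 (ENSCGRG00001005188), the isomerase of the isoprene unit, rose most. It was at 67.6, 64.9 and 74.2 CPM in the controls used in the tests. After 1 h at 40 °C it was at 68.1, 65.3, 82.95 and 81.2 CPM. Of these, replicates C and D lay above those controls and A and B among them. The 6 h levels were 82.1, 99.6, 98.9 and 103 CPM, all above these controls, as in 18.6% of all genes. However, 6 h replicate A was no higher than replicate C of the 1 h group and was below 37 °C replicate D (83.1 CPM). Idi1 rose at 6 h by 0.48 on the log2 scale against 37 °C (SE 0.072, adjusted p = 0.000131, 95% interval 0.33 to 0.63). Of the 8 genes only Idi1 kept its call after 6 h with all 4 controls, and it passed in every fit that left out 1 library. At 42.5 °C its libraries were at 69.4, 67.7, 69.2 and 72.4 CPM, inside the control range, with a difference of 0.01 (95% interval -0.10 to 0.13).

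Fdft1 (ENSCGRG00001024493), squalene synthase, followed a like course. The controls were at 24.1, 27.9 and 26.8 CPM, the libraries after 1 h at 40 °C at 23.2, 24.5, 25.8 and 30.9 CPM, and those after 6 h at 29.2, 35.4, 33.0 and 34.8 CPM. All 4 libraries at 6 h were above the controls, as in 18.6% of all genes, and 1 of 4 at 1 h was. The 6 h difference was 0.33 (SE 0.082, adjusted p = 0.00528). It passed in all 7 fits that left out 1 library, and with all 4 controls it was 0.29 and no longer passed (adjusted p = 0.0617). At 42.5 °C the level was 26.2, 26.3, 24.5 and 27.9 CPM, which overlapped the controls, with a 95% interval of the difference from -0.17 to 0.16.

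The last 3 enzymes turn squalene into cholesterol. Sqle (ENSCGRG00001011940), the squalene epoxidase and a rate-limiting step, was at 279, 290 and 302 CPM at 37 °C, at 260, 281, 279 and 299 CPM after 1 h at 40 °C, and at 284, 298, 307 and 326 CPM after 6 h. These groups overlapped, with differences from 37 °C of -0.05 (adjusted p = 0.669) and 0.06 (adjusted p = 0.39). At 42.5 °C the libraries were at 236, 233, 249 and 255 CPM, all below every other library. The shares of all genes given for Srebf2 apply here too. The fall of 0.26 (SE 0.044, adjusted p = 0.000208) passed in each fit that left out 1 library and with all 4 controls.

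Lss (ENSCGRG00001020282), lanosterol synthase, had, like Srebf2, its highest mean at 37 °C and its lowest at 42.5 °C. Its levels were 32.6, 38.5 and 31.7 CPM at 37 °C, 32.6, 31.2, 26.0 and 32.0 CPM after 1 h at 40 °C, 30.3, 26.3, 28.6 and 31.6 CPM after 6 h, and 29.6, 29.7, 27.5 and 25.9 CPM at 42.5 °C. The 6 h and 42.5 °C libraries were all below the controls used in the tests, as in 17.6% and 22.8% of all genes. Replicate B of these controls stood above the other 2. At 26.0 CPM, 37 °C replicate D was below all 6 h libraries. The differences were -0.24 after 6 h (SE 0.083, adjusted p = 0.0372) and -0.30 at 42.5 °C (SE 0.080, adjusted p = 0.00761). Without control replicate B they were -0.14 (adjusted p = 0.276) and -0.20 (adjusted p = 0.0721), and with all 4 controls -0.15 (adjusted p = 0.452) and -0.19 (adjusted p = 0.297). The 6 h call was also lost without control replicate A (adjusted p = 0.0542) and without 6 h replicates B or C (adjusted p = 0.0976 and 0.0826).

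Dhcr7 (ENSCGRG00001000860), the reductase of the sterol precursor of vitamin D, had the lowest adjusted p of the 8 genes at 42.5 °C. It was at 87.3, 86.5 and 83.3 CPM in the controls, at 89.6, 87.7, 79.7 and 88.6 CPM after 1 h at 40 °C, and at 88.9, 92.2, 85.7 and 94.2 CPM after 6 h. The 40 °C groups overlapped the controls, with differences of 0.01 (adjusted p = 0.94) and 0.07 (adjusted p = 0.319). At 42.5 °C the libraries were at 61.9, 57.0, 62.0 and 64.6 CPM, so the highest of them was well below 79.7 CPM, the lowest library of any other group. For this separation too the shares of all genes are those given for Srebf2. Dhcr7 fell by 0.49 in log2 units (SE 0.052, adjusted p = 3.06e-06, 95% interval -0.60 to -0.38). It passed in every alternative that tested for any change, with adjusted p at most 0.00435. Of all 10470 genes tested, 7.1% had a lower log2 fold change.

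Set against all genes, the counts read as follows. After 1 h at 40 °C, 0 of 8 genes passed where 1.64% of all genes did, and 0 were DEGs where 0.334% were. Only Insig1 had a 95% interval clear of 0 (0.01 to 0.34), which makes 1 of 8 at an unadjusted p under 0.05, where 14.8% of all genes were. The intervals differed in width, from -0.16 to 0.05 for Sqle to -0.21 to 0.19 for Fdft1. DESeq2 also called 0 of the 8. At 40 °C for 6 h, 4 of 8 passed against a background of 29.4%, with 3 higher where 14.7% of all genes were higher and 1 lower where 14.8% were lower, and 0 were DEGs against 3.11%. Their median log2 fold change was 0.12, and that of all genes was 0.00. At 42.5 °C, 5 of 8 passed against 43.1%, all 5 lower where 22.3% of all genes were lower, and 0 were DEGs against 7.51%. The median of the 8 was -0.23, beside a median of 0.00 over all genes. Srebf2, Insig1, Sqle, Lss and Dhcr7 were below every control used in all libraries at 42.5 °C, as were 22.8% of all genes. Scaling by library size alone lowered the share of higher genes among those passing at 42.5 °C from 48.3% to 26.8% and moved the median of all genes to -0.075. The 5 falls kept their direction and call under that scaling, and Hmgcs1 joined them.

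**Figure D2:**
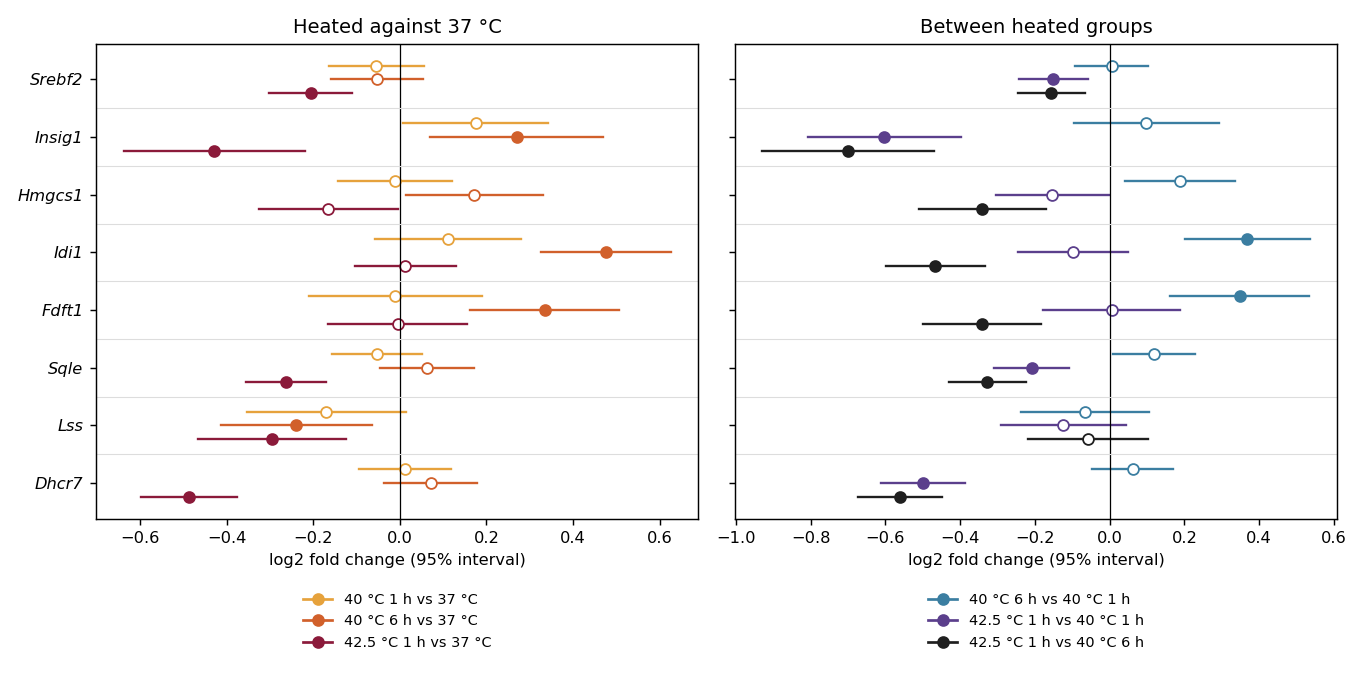
Log2 fold change of the 8 genes with its 95% interval from edgeR, for each heated group against 37 °C (left) and between heated groups (right), with the vertical line at no change. Filled points passed an adjusted p of 0.05 and open points did not: at 42.5 °C the points against 40 °C 6 h lie to the left of 0 for all 8 genes, and 7 of them are filled.

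The heated groups were then compared directly, without the 37 °C libraries. Between 6 h and 1 h at 40 °C, 2 of 8 genes passed where 18.5% of all genes did, both higher at 6 h where 9.45% were, and 0 were DEGs where 1.28% were. These were Idi1, with a log2 difference of 0.37 (SE 0.079, adjusted p = 0.00471), and Fdft1, with 0.35 (SE 0.088, adjusted p = 0.0123). Both passed without each library in turn. Insig1, which passed against 37 °C at 6 h only, differed by 0.10 between the times (95% interval -0.10 to 0.29, adjusted p = 0.498), so a change with time at 40 °C was not shown for it.

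Between 42.5 °C and 40 °C, both for 1 h, 4 of 8 genes were lower at the higher temperature, where 36.1% of all genes passed and 19.6% passed as lower. Insig1 differed by -0.60 (SE 0.097, adjusted p = 2e-04), and it was the 1 DEG among the 8, where 5.27% of all genes were DEGs. It kept its call but fell short of 1.5-fold, a log2 change of 0.585, without 40 °C 1 h replicates C or D (-0.58 and -0.56) or 42.5 °C replicates A or B (-0.55 and -0.53). Dhcr7 differed by -0.50 (SE 0.053, adjusted p = 3.84e-06), Sqle by -0.21 (SE 0.047, adjusted p = 0.0028) and Srebf2 by -0.15 (SE 0.044, adjusted p = 0.0134). The Srebf2 call was lost without 40 °C 1 h replicate B (adjusted p = 0.0522) and without 42.5 °C replicate B (adjusted p = 0.052).

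The widest contrast was between 1 h at 42.5 °C and 6 h at 40 °C. Here 7 of 8 genes were lower at 42.5 °C, where 47% of all genes passed and 24.5% passed as lower, and 1 of 8 was a DEG where 8.25% of all genes were. Insig1 was again that DEG, at -0.70 (SE 0.109, adjusted p = 6.11e-05), or 38.5% lower. Dhcr7 followed with -0.56 (SE 0.053, adjusted p = 3.37e-07), Idi1 with -0.47 (SE 0.063, adjusted p = 1.43e-05) and Fdft1 and Hmgcs1 with -0.34 each. Sqle differed by -0.33 and Srebf2 by -0.16. In each of the 7 no library at 42.5 °C reached the lowest at 6 h, as in 21.3% of all genes, and each passed in all 8 fits that left out 1 library. Lss was the exception, with -0.06 (95% interval -0.22 to 0.10, adjusted p = 0.558). The 3 comparisons with 37 °C share their controls, and those between heated groups share heated libraries, so they are not independent of each other.

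Put in order of mean level, each gene had few steps that passed. Neighbours are said here to differ where their test passed. For Dhcr7 and Insig1 the order from the top was 6 h at 40 °C, 1 h at 40 °C, 37 °C and 42.5 °C, and of these neighbours only 37 °C and 42.5 °C differed. For Sqle the order was 6 h at 40 °C, 37 °C, 1 h at 40 °C and 42.5 °C, and only the last pair differed. Idi1 ran from 40 °C 6 h through 40 °C 1 h and 42.5 °C to 37 °C, and Fdft1 from 40 °C 6 h through 37 °C and 42.5 °C to 40 °C 1 h. In both of these the top group differed from the next, and the remaining neighbours did not. Srebf2 ran from 37 °C through 40 °C 6 h and 40 °C 1 h to 42.5 °C, with a difference only at the last step. In Hmgcs1 and Lss no step between neighbours passed, which does not show that their levels were equal.

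The rest of the pathway was read from lists of genes that are not among the 8. Of 6 further genes of the mevalonate arm, which leads from acetyl-CoA to isoprenoid diphosphates such as farnesyl diphosphate, 5 were found by name and tested. Between 37 °C and 1 h at 40 °C none passed. The 6 h treatment at 40 °C raised 1 and lowered 1, where 14.7% and 14.8% of all genes passed as higher and lower. Pmvk, phosphomevalonate kinase, rose by 0.27 (adjusted p = 0.0117), and Mvk, mevalonate kinase, fell by 0.21 (adjusted p = 0.0346). With all 4 controls neither passed (adjusted p = 0.634 and 0.0809). The Mvk call also needed control replicates B and C and 6 h replicates B, C and D (adjusted p up to 0.199 without one of them), and that of Pmvk was lost without control replicate B (adjusted p = 0.0529). The median of the list was 0.10. At 42.5 °C, 1 of 5 passed against 43.1% of all genes: Mvk was lower by 0.23 (adjusted p = 0.00765), a call lost without control replicate B (adjusted p = 0.0597), and the median was -0.10.

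All 8 listed genes that convert lanosterol to cholesterol were tested. At 6 h and 40 °C, 3 of 8 rose and none fell, against 14.7% and 14.8% of all genes, with a median of 0.18. Among them Cyp51, the lanosterol demethylase, rose by 0.25 (adjusted p = 0.0017). Sc5d, a sterol desaturase, rose by 0.16 (adjusted p = 0.0328), and it did not pass with all 4 controls (adjusted p = 0.097), by library size alone (adjusted p = 0.0555), or without control replicates A or B or 6 h replicates B, C or D (adjusted p up to 0.138). At 42.5 °C the list split, with 3 of 8 higher and 2 lower, against 20.8% and 22.3% of all genes, and a median of 0.05. Tm7sf2, a sterol reductase, fell by 1.37 from only 1.23 CPM (adjusted p = 0.0111), and its call was lost without control replicate A (adjusted p = 0.0765). Hsd17b7, a sterol ketoreductase, rose by 0.29 (adjusted p = 0.0403), and it did not pass without control replicates A or C (adjusted p = 0.108 and 0.145) or 42.5 °C replicate B (adjusted p = 0.132). Cyp51 and Nsdhl, which act early in removing the methyl groups of lanosterol, were higher by 0.17 (adjusted p = 0.00495) and 0.20 (adjusted p = 0.0116), and Lbr, a sterol reductase of the nuclear envelope, was lower by 0.21 (adjusted p = 0.0021). Of these 3, Cyp51 at 42.5 °C was chosen after its value was seen. Nsdhl did not pass with all 4 controls (adjusted p = 0.475), by library size alone (adjusted p = 0.0876) or without control replicate B (adjusted p = 0.069). Scaled by library size alone, Cyp51 had a difference of 0.10 and did not pass (adjusted p = 0.085), nor did it with all 4 controls (adjusted p = 0.0737).

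Taking the 6 enzymes among the 8 genes with the 13 tested enzymes of both lists, 6 of 19 rose and 2 fell after 6 h at 40 °C, with a median of 0.16. At 42.5 °C 3 of 19 rose and 6 fell, with a median of -0.07, and after 1 h at 40 °C none passed, with a median of 0.03. Over all genes, as given above, the share passing was 14.7% higher and 14.8% lower at 6 h, and 20.8% higher and 22.3% lower at 42.5 °C. Against 40 °C 6 h, 10 of the 19 enzymes were lower at 42.5 °C and 1 was higher, where 24.5% of all genes were lower and 22.5% higher.

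**Figure D3:**
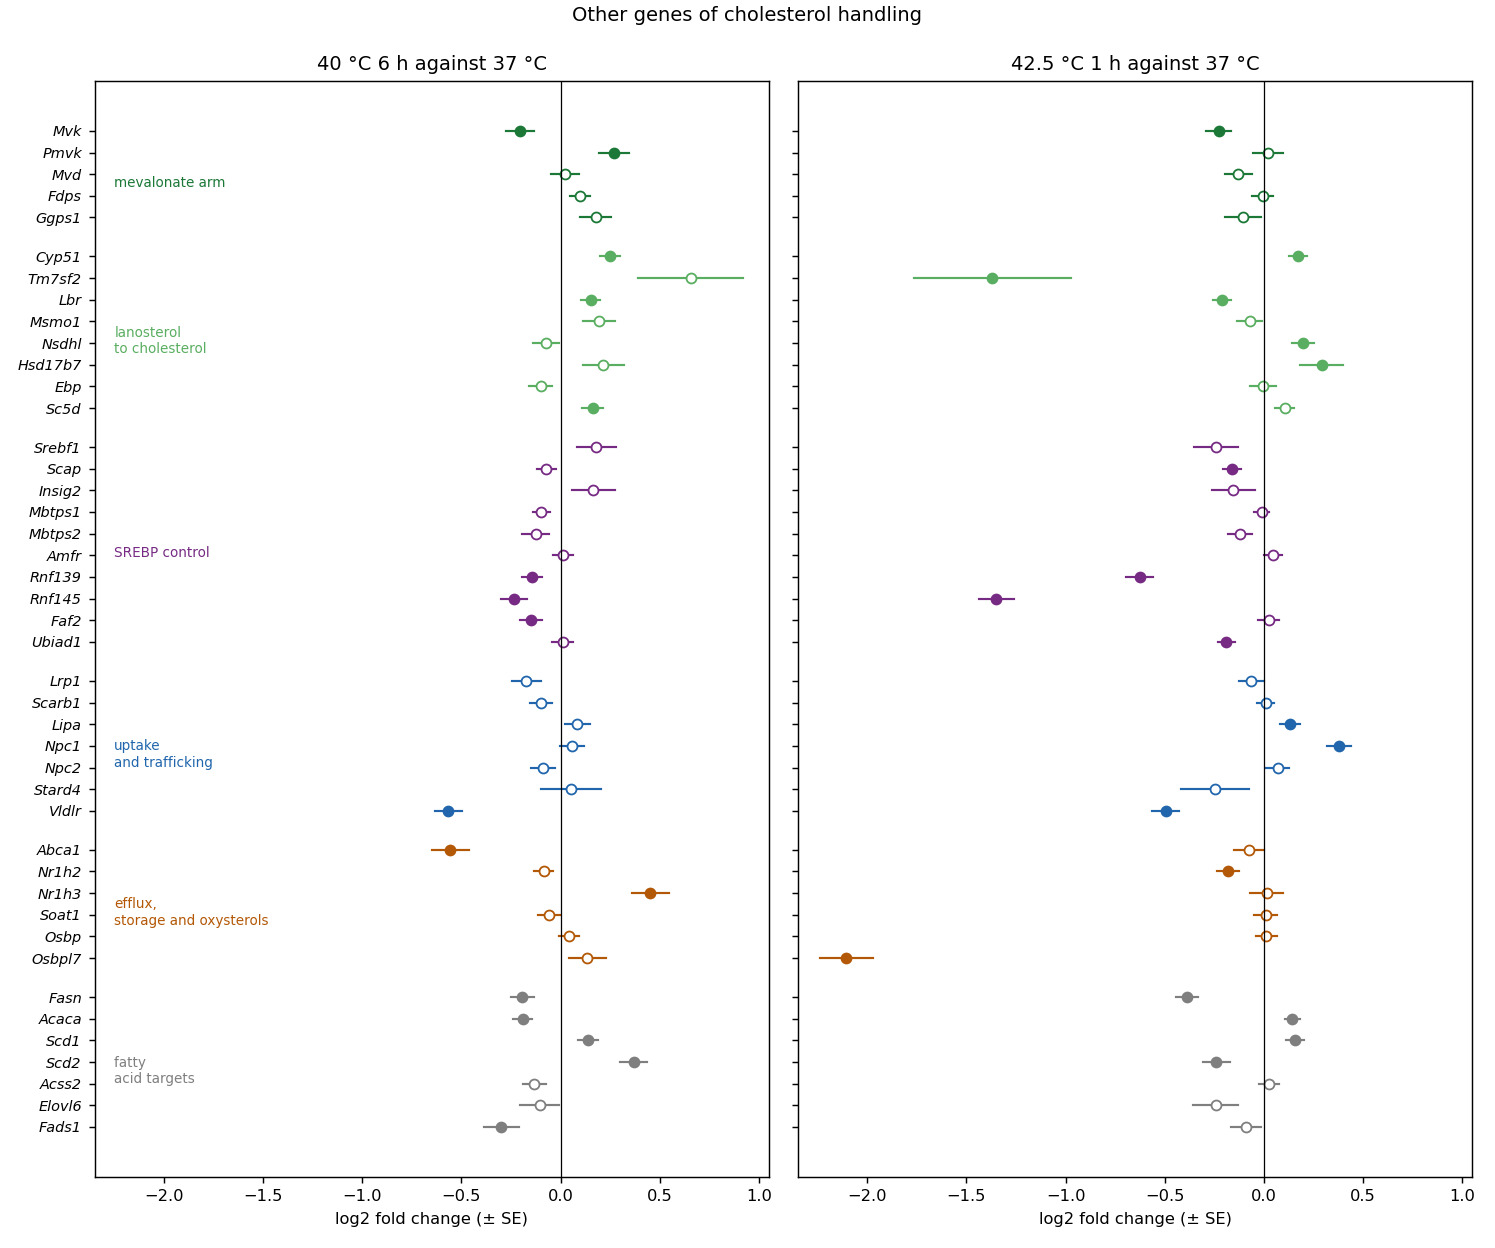
Log2 fold change ± SE from edgeR of the tested genes in 6 lists around cholesterol, for 6 h at 40 °C (left) and 1 h at 42.5 °C (right), each against 37 °C, with the vertical line at no change. Filled points passed an adjusted p of 0.05: most points lie near the line of no change, and the far points at 42.5 °C are Osbpl7, Tm7sf2 and Rnf145.

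Genes that control SREBP formed a list of 10, all tested. At 40 °C for 6 h, 3 of 10 fell, where 14.8% of all genes did, and none rose, among them Rnf145 by 0.24 (adjusted p = 0.0122), which did not pass without control replicate B (adjusted p = 0.071) or with all 4 controls (adjusted p = 0.0972). At 42.5 °C, 4 of 10 fell, where 22.3% of all genes did, and none rose. Rnf145, a ubiquitin ligase of the endoplasmic reticulum that acts on SCAP, fell from 44.2 to 17.5 CPM, a log2 change of -1.35 (SE 0.086, adjusted p = 1.85e-08). Rnf139, a related ligase that binds Insig, fell from 120 to 78.0 CPM, by 0.63 (adjusted p = 3.74e-06). These 2 were DEGs, where 7.51% of all genes were, and Rnf139 was short of 1.5-fold without 42.5 °C replicate D (-0.56). The list's median was -0.16 at 42.5 °C and -0.08 after 6 h.

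Of 8 genes of uptake and trafficking, 7 could be tested, and Mylip was too low. Of these, only Vldlr, a lipoprotein receptor, passed after 6 h at 40 °C, where 29.4% of all genes did, with a fall of 0.57 (adjusted p = 1.6e-05). At 42.5 °C, 2 rose and 1 fell, so that 3 of 7 passed where 43.1% of all genes did. Vldlr fell by 0.50 (adjusted p = 3.13e-05). Npc1, which exports cholesterol from lysosomes, rose from 40.6 to 53.1 CPM, by 0.38 (adjusted p = 0.000131). Lipa also rose, by 0.13 (adjusted p = 0.0481), but it passed in only 2 of 7 fits that left out 1 library.

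Of 10 genes of efflux, storage and oxysterols, 6 could be tested. After 6 h at 40 °C 2 of 6 passed, where 29.4% of all genes did. Abca1, the cholesterol exporter of the plasma membrane, fell from 65.1 to 44.4 CPM, by 0.56 (adjusted p = 0.000344), and Nr1h3, the oxysterol receptor that activates it, rose by 0.45 (adjusted p = 0.00175). With all 4 controls neither passed, at -0.30 (adjusted p = 0.539) and 0.32 (adjusted p = 0.151). At 42.5 °C 2 of 6 were lower, where 22.3% of all genes were, and Osbpl7, an oxysterol-binding protein, fell from 18.5 to 4.36 CPM, by 2.11 (SE 0.135, adjusted p = 1.85e-08). The study itself lists Osbpl7 among its most decreased genes at 42.5 °C. As the lists were chosen with earlier results known, neither its fall nor the count of 2 of 6 is an independent finding.

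Within groups, the 8 genes varied in part by replicate letter. In the 3 heated groups replicate D was the highest of 4 libraries in 15 of 24 combinations of gene and group, 4 after 1 h at 40 °C, 6 after 6 h and 5 at 42.5 °C. Replicate A was the lowest in 9 of 24 and replicate B in 8 of 24. At 42.5 °C A was the lowest in only 1 gene and B in 5. After subtracting group means, Pearson's r over the 15 libraries was 0.82 between Insig1 and Sqle, 0.72 between Hmgcs1 and Sqle and 0.69 between Hmgcs1 and Insig1. It was -0.76 between Srebf2 and Idi1, and -0.21 and -0.25 between Srebf2 and Insig1 and Sqle. These are descriptions of 15 libraries that share group means and letters. Because no replicate D stands among the controls in the tests, the fit without 6 h replicate D compares replicates A to C alone. It gave 0.45 for Idi1 (adjusted p = 0.000508), 0.32 for Fdft1 (adjusted p = 0.0141), -0.28 for Lss (adjusted p = 0.0286) and 0.20 for Insig1 (adjusted p = 0.12). Without 42.5 °C replicate D the same 5 genes passed, and Hmgcs1 as well, at -0.22. What the letters share in handling is not given in the labels, and their part in the results was not tested further.

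**Figure D4:**
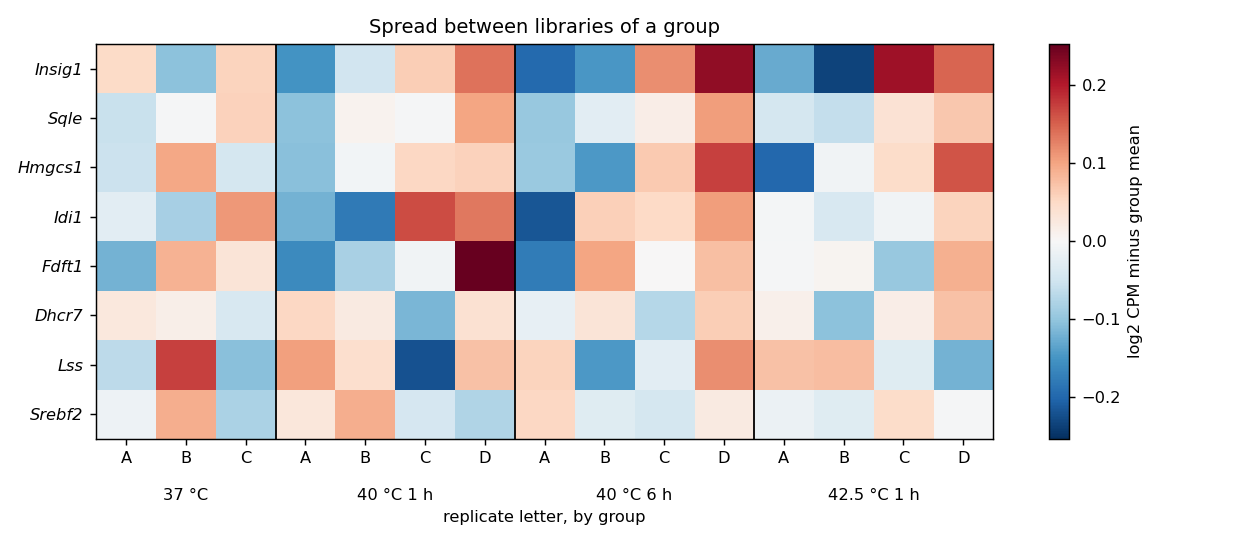
Heat map of log2 CPM (prior count of 2) minus the mean of its group, for the 8 genes in rows and the 15 libraries used in columns, ordered by group and replicate letter. Red is above and blue below the group mean: in the heated groups replicate D is mostly red and replicate A mostly blue in Insig1, Sqle, Hmgcs1 and Fdft1, and Srebf2 does not share that order.

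The genes most like the mean of the 8 over the 15 libraries were found by Pearson's r of log2 CPM with the mean z-score of the 8, among 10619 other genes. They were Ercc6l, a helicase of mitosis, with r = 0.948, Pias1, a SUMO ligase, with 0.947, St6galnac6, a sialyltransferase, with 0.941, Tbk1, a kinase of innate immunity, with 0.94 and Ttc30b, a protein of ciliary transport, with 0.939. None is a gene of the sterol pathway. All 5 had their lowest mean at 42.5 °C and their highest after 6 h at 40 °C, for Ercc6l 81.7 and 127 CPM beside 113 CPM at 37 °C. That order follows from how they were chosen and is no separate result. The mean z-score itself was between -1.22 and -0.75 in the libraries at 42.5 °C, between 0.41 and 1.34 after 6 h at 40 °C, and between -0.17 and 0.54 in the other 2 groups.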

How the data were processed

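CHO cells were sequenced in 16 libraries, and the authors deposited the read counts per gene, whole numbers without normalization. They trimmed the reads, mapped them to the CHOK1GS_HDv1 genome and counted them in CLC Genomics Workbench. Strandedness and the handling of multiply mapped reads are not given in the sources used here. Replicate D at 37 °C was left out because its counts are not those in the study's table of 920 genes, which match the other 15 libraries. Groups were compared 2 at a time with edgeR 4.0.16 in R 4.3.3 (filterByExpr, TMM, quasi-likelihood test, Benjamini-Hochberg over all 10427 to 10499 genes). Tests on simulated data preceded the real fits. P-values measure the spread between these libraries.

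The 8 genes and all lists were chosen with earlier results of these data known. From each list, genes that passed against 37 °C were named, at most the 12 with the largest change per comparison, plus the 5 most similar genes. Acat2, Acly, Scd, Hspa8, Krt8, Krt18 and Cd68 were not found by name. Some further genes of these lists are not reported here. RefSeq CriGri-PICRH-1.0 served only to list overlapping genes, matched by symbol for 8 of 8. Alternatives were DESeq2 1.42.0 and its size factors, library size only, other filters, all 4 controls, a joint fit of the 4 groups, a replicate block by letter, glmTreat, and each library left out. Replicates A to C only, between heated groups, and all 4 controls with the block, were added after seeing the data.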

Additional observations from a re-analysis of the deposited data

Results flagged for a closer look

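Dixon's 95% limit on the gap to the nearest neighbour flagged no library in any of 32 combinations of gene and group, 37 °C replicate D included. In groups this small the limit asks for a gap of most of the range, so it cannot show that no library deviates. Replicate D at 37 °C lay outside the range of the other 3 controls in all 8 genes, above it in 5 and below it in 3. The 8 genes differed between heated groups in 13 tests, the values of which follow on the log2 scale. Between 6 h and 1 h at 40 °C, Idi1 differed by 0.37 and Fdft1 by 0.35. Between 42.5 °C and 40 °C at 1 h, Srebf2 differed by -0.15, Insig1 by -0.60, Sqle by -0.21 and Dhcr7 by -0.50. Between 1 h at 42.5 °C and 6 h at 40 °C, Srebf2 differed by -0.16, Hmgcs1 by -0.34, Insig1 by -0.70, Sqle by -0.33, Idi1 by -0.47, Fdft1 by -0.34 and Dhcr7 by -0.56. In this last contrast time and temperature both differ, and their parts cannot be told apart.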

How the results depend on the processing

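Apart from tests against a 1.5-fold change, 768 values of the 8 genes were recomputed under the alternatives. Of these 731 kept their direction, where called, and their side of the threshold, 26 lost a call, 11 gained one and 0 reversed a call. glmTreat against 1.5-fold gave 0 of 8 genes in all 6 comparisons. The DEG rule gave 0 against 37 °C and for 6 h against 1 h, and 1 in each comparison of 42.5 °C with 40 °C. With all 4 controls, 1 gene passed after 6 h and 3 at 42.5 °C, with or without the replicate block. Over all genes 1122 of 10448 then passed after 6 h and 1895 of 10408 at 42.5 °C, and 572 and 1511 of these with the block. Leaving out single libraries gave 0 genes after 1 h at 40 °C, 2 to 4 after 6 h (2 without 37 °C replicates A or B or 6 h replicate C), 4 to 6 at 42.5 °C, 2 to 3 between 6 h and 1 h, 3 to 5 between 42.5 °C and 40 °C at 1 h, and 7 throughout between 42.5 °C and 40 °C 6 h. In the same order, 63 to 276, 2092 to 3371, 3519 to 4484, 1282 to 2080, 3088 to 3736 and 4278 to 4791 of all genes passed. The number tested in these fits was 10425 to 10576.

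Letters were not treated as pairs, since same-letter libraries correlated by -0.049 to 0.172 across genes over 21 pairs and no comparison had every pair above 0.1. The replicate block gave 0, 3 and 6 genes against 37 °C, 4 between 6 h and 1 h (Hmgcs1 and Sqle joined, higher), 5 between 42.5 °C and 40 °C at 1 h and 7 between 42.5 °C and 40 °C 6 h. Over all genes, 624 of 10477, 2992 of 10469 and 4678 of 10425 passed with the block against 37 °C. Between heated groups, in the order given, these were 2297 of 10439, 4040 of 10441 and 5050 of 10427. Of the other named genes, Acaca reversed after 6 h with all 4 controls (0.009, and 0.068 with the block), as did Fasn with all 4 controls and the block (0.013), and the cause was not tested.

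Over all genes, the number passing against 37 °C was 172, 3091 and 4510. It was 2, 31 and 262 with glmTreat, 4, 1122 and 1895 with all 4 controls, and 1, 572 and 1511 with these and the block. At 40 °C 1 h it was 624 with the block, 323 without a filter on low counts, 107 in 1 fit over all groups, and 63 to 276 with single libraries left out. For 6 h against 1 h, glmTreat gave 8 in place of 1931, at 42.5 °C against 40 °C 1 h 171 in place of 3767, and against 40 °C 6 h 260 in place of 4904. With library size only, the share of higher calls went from 45.6% to 25.8% at 42.5 °C against 40 °C 1 h and from 47.9% to 33.2% against 40 °C 6 h. With all 4 controls that share at 42.5 °C against 37 °C was 37.5%. With 3 or 4 libraries a group, and as few as 175 counts of a gene in a library, both counting error and replicate spread limit the precision.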

Other observations

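Genes of fatty acid synthesis, many of which share SREBP control, were listed beside the sterol genes, and 7 of 10 could be tested. After 6 h at 40 °C, 2 rose and 3 fell, so that 5 of 7 passed where 29.4% of all genes did. The desaturase gene Scd2 rose from 116 to 149.9 CPM, by 0.37 on the log2 scale (adjusted p = 0.000902). Fads1, another desaturase, fell by 0.30 (adjusted p = 0.0184), and Fasn, fatty acid synthase, and Acaca, acetyl-CoA carboxylase, fell by 0.19 each (adjusted p = 0.0176 and 0.00497). With all 4 controls Fasn and Acaca were at -0.03 and 0.01, and neither they nor Fads1 passed (adjusted p = 0.132 for Fads1). The call of Fads1 was also lost without control replicate B or 6 h replicate B (adjusted p = 0.131 and 0.0545), and that of Fasn without control replicates A or B (adjusted p = 0.0852 and 0.066). At 42.5 °C, 2 rose and 2 fell, 4 of 7 against 43.1% of all genes, among them Fasn by 0.39 (adjusted p = 5.1e-05) and Scd2 by 0.24 (adjusted p = 0.0114), and with all 4 controls neither passed (adjusted p = 0.455 and 0.143). Scd2 also did not pass at 42.5 °C without control replicates B or C (adjusted p = 0.0624 and 0.0557).

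In 37 °C replicate D, which the tests left out, Insig1 was at 32.1 CPM, Hmgcs1 at 39.2, Idi1 at 83.1, Fdft1 at 29.1, Lss at 26.0 and Dhcr7 at 95.2. Insig1, Idi1, Fdft1 and Dhcr7 were above and Hmgcs1 and Lss below the range of the other 3 controls. In Srebf2, Hmgcs1 and Lss it was below all 4 libraries after 1 h at 40 °C.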
